A study of Homo sapiens with 8 samples.

Results

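The pooled effect of AsiDNA in U87, a long-used human glioblastoma cell line, was taken over 2 backgrounds, without and with the deacetylase inhibitor belinostat. All 8 libraries of the series entered 1 model with a term for belinostat and a term for AsiDNA, so that 4 libraries with AsiDNA were set against 4 without it. The 4 groups held 2 libraries each. DMSO libraries came from cells given the solvent, and belinostat libraries from cells given 1 µM of the drug for 24 h. AsiDNA libraries came from cells kept on AsiDNA for a long time, and combination libraries from such cells given the same belinostat treatment. All cells grew in DMEM medium with fetal bovine serum and antibiotics. The protocols call the cells MTU87 and LTAU87 without spelling out either name, and the sources used here give neither dose nor duration of AsiDNA. Whether the 2 libraries of a group came from separate cultures is not stated. The p-values therefore rest only on the spread between these samples, and that spread may be technical. Drift or selection in cells kept long on AsiDNA and an effect of AsiDNA itself cannot be told apart in this design.

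AsiDNA is a short double-stranded oligonucleotide, linked to cholesterol for uptake, whose free end resembles a DNA break. It binds DNA-PK, the kinase that starts end joining, and the poly(ADP-ribose) polymerase PARP, and so draws break signalling away from the chromosomes. Belinostat blocks histone deacetylases, which take acetyl groups off histones and other proteins. The pooled effect asks which transcripts differed in AsiDNA-treated cells whether or not the deacetylases were inhibited.

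Total RNA was sequenced after removal of ribosomal RNA, so transcripts without a poly(A) tail were also counted. The libraries held 6057394 to 9699637 counts, where 3 counts equal 0.309 to 0.495 CPM (counts scaled to a common library total). CPM of single genes are given after TMM scaling. In these cells the intermediate filament gene VIM lay between 1370 and 5970 CPM and the hyaluronan receptor gene CD44 between 1420 and 2520 CPM. The astrocyte gene GFAP gave 8 counts in all libraries together, and CDKN2A, which U87 cells are known to lack, gave 0 counts. The DMSO replicates stood apart from each other: 11.1% of 8142 well-expressed genes differed by more than 1.5-fold between them. The same share was 0.184% for the AsiDNA pair, 0.786% for the belinostat pair and 0.54% for the combination pair. For that reason the effect without belinostat is also given against each DMSO library alone, for the pooled calls and for some of the lists and genes described.

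Of 14741 tested genes, 2038 rose and 2260 fell with AsiDNA in the pooled model at an adjusted p under 0.05 in edgeR's quasi-likelihood test. These 4298 genes were 29.2% of those tested, 13.8% higher and 15.3% lower. The smallest adjusted p was 0.0127 and 6652 genes had an unadjusted p under 0.05. Histone, ribosomal protein and antioxidant genes made up named groups that rose, and nuclear noncoding RNAs and the early response gene EGR1 were among those that fell. Scaling by library size alone gave 1640 higher and 2487 lower genes.

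The number of calls moved with single libraries. Leaving out DMSO replicate 1 gave 8431 genes and leaving out DMSO replicate 2 gave 9, while it was 3894 and 3618 without AsiDNA replicates 1 and 2. Without belinostat replicate 1 or 2, or combination replicate 1 or 2, edgeR called 0 genes. The unadjusted p was then under 0.05 for 5056, 4945, 5233 and 4858 genes, and the smallest adjusted p lay between 0.0613 and 0.0789. With all 8 libraries DESeq2 called 4625 genes, and without DMSO replicate 2 it called 1632. The 9 genes that edgeR called without DMSO replicate 2 were EGR1, ITGA2, COL3A1, COL9A2, GPR135, PCBP2, DNAI1, STX16-NPEPL1 and SND1-IT1, of which ITGA2 alone was higher. All were also called with 8 libraries. In that setting the log2 effect of AsiDNA without belinostat was -0.03 for DNAI1, -0.59 for COL9A2 and -0.81 for STX16-NPEPL1. It was -1.57 for EGR1, 0.72 for ITGA2, and between -1.4 and -0.69 for COL3A1, GPR135, PCBP2 and SND1-IT1.

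**Figure D1:**
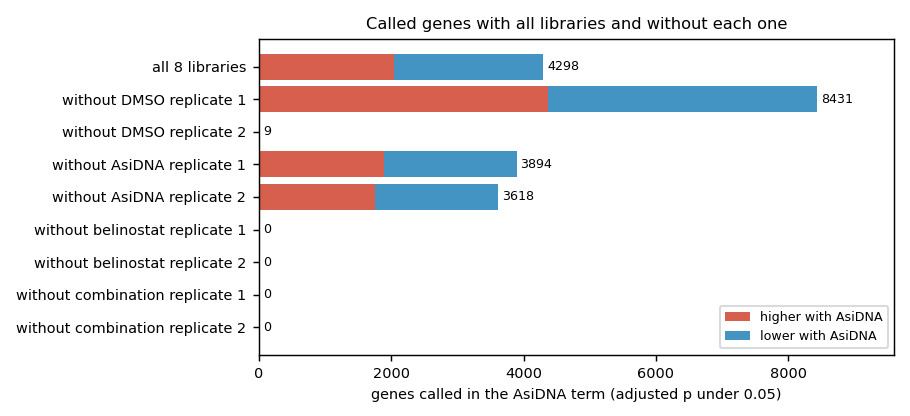
Genes called in the AsiDNA term of the pooled model (horizontal axis, number of genes at an adjusted p under 0.05, split into higher and lower) with all 8 libraries and without each library in turn. The bar grows from 4298 to 8431 without DMSO replicate 1, falls to 9 without DMSO replicate 2, and is at 0 without any belinostat or combination library.

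Taken apart, far more genes were called with belinostat than without it. AsiDNA against DMSO gave 3 called genes (0.0204% of those tested), all lower: EGR1, CCN1 and CCN2. Unadjusted p was under 0.05 for 1674 genes in that comparison (11.4%), and DESeq2 called 33. Without a filter on low counts edgeR called 520 genes. It called 4955 without DMSO replicate 1, 62 without DMSO replicate 2 and 1 without AsiDNA replicate 2 or either belinostat replicate. It called 0 without AsiDNA replicate 1 or either combination replicate. The combination against belinostat gave 6398 called genes (43.4%), 3237 higher and 3161 lower. That count was 4220 and 3727 without belinostat replicates 1 and 2 and 3142 without combination replicate 2. The 2 comparisons share no library. Of the 4298 genes called in the pooled model, 3974 (92.5%) were also called in the combination against belinostat.

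Among the 4298 genes, 4278 (99.5%) moved the same way in both backgrounds, 2038 up and 2240 down. Over all tested genes the share was 76.8%. The pooled term is fitted on both comparisons, so the share among its calls is a description and no separate test. Of the called genes 92.5% were also called in the combination against belinostat, so the sizes of their changes partly reflect how they were chosen. For 92.9% of the same-direction genes the change was larger with belinostat. Those that rose had a median log2 fold change of 0.27 without and 0.78 with belinostat, and those that fell had medians of -0.55 and -1.17. In all, 26.5% changed by at least 1.5-fold without belinostat and 83.9% with it. No gene was called in opposite directions in the 2 backgrounds, but with only 3 genes called without belinostat hardly any could have been. The difference between the backgrounds was called for 1 gene (0.00678% of those tested), AAAS, and its unadjusted p was under 0.05 for 3203 genes. DESeq2 called that difference for 614 genes, and edgeR called it for 1020 without DMSO replicate 1 and 5358 without DMSO replicate 2.

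The likeness of the 2 backgrounds varied with the DMSO library used. Across genes the log2 fold changes in the 2 backgrounds had a Pearson r of 0.561 and a Spearman rho of 0.632 (n = 14741 genes, which are not independent replicates). These values were 0.663 and 0.744 without DMSO replicate 1, and 0.0413 and 0.0866 without DMSO replicate 2 (n = 14732). Without DMSO replicate 2, 53.6% of all tested genes had the same sign in both backgrounds, against 81.2% without DMSO replicate 1. Of the genes called in the pooled model 99.6% kept their direction without DMSO replicate 1 and 76.7% without DMSO replicate 2. Same-direction genes that rose had medians of 0.51 and 0.08 in these settings, and those that fell -0.83 and -0.16. A difference of at least 1.5-fold was then found in 51.7% and 10.8% of them.

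**Figure D2:**
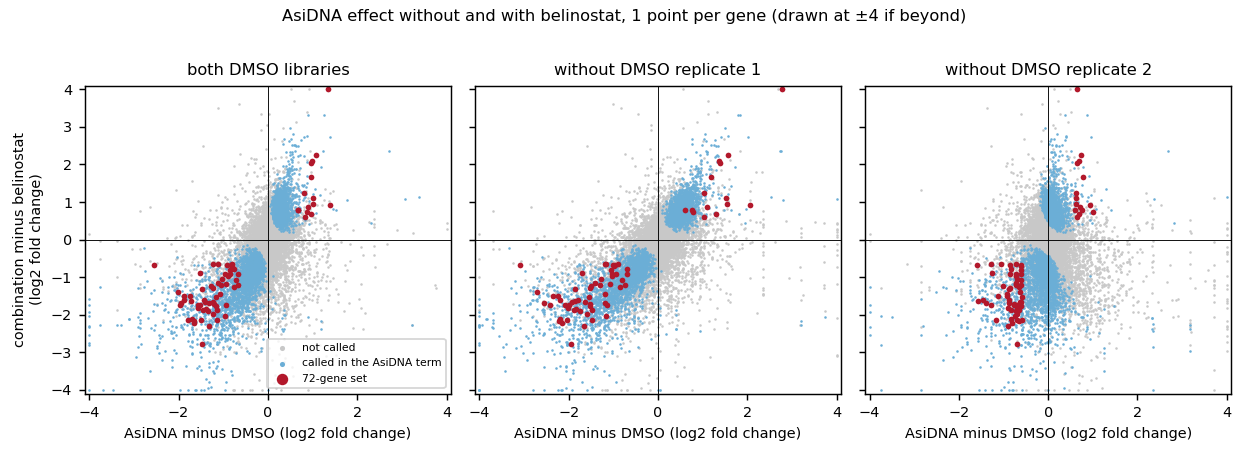
Log2 fold change of AsiDNA against DMSO (horizontal axis) and of the combination against belinostat (vertical axis), 1 point per tested gene, with both DMSO libraries and without each of them. Genes called in the pooled model are blue and the 72 genes described next are red. The cloud is tilted with both DMSO libraries (Pearson r 0.561) and upright without DMSO replicate 2 (Pearson r 0.0413).

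A set of 72 genes (1.68% of the called genes) was drawn from the calls after their values had been seen, and it is described without a test of its own. Its members had an average log2 CPM of at least 2 and lay, in each background, with both AsiDNA-treated libraries beyond both others. Of all called genes 60.4% did so, against 27.1% of all tested genes. Its members also differed by at least 1.5-fold in the pooled direction in the combination against belinostat, in AsiDNA against DMSO, and against each DMSO library alone. There were 15 higher and 57 lower genes, 43 of them protein coding and 57 with a symbol. None had a called difference between the backgrounds, which was called for only 0.00678% of all tested genes. The fitted difference was 1.18 ± 0.29 for RN7SL1 and -0.98 ± 0.44 for FOSB, against 0.09 ± 0.34 for EGR1. The smallest of the 4 changes was -0.59 on the log2 scale for KDM6B, just inside the limit, and 0.58 for the metallothionein gene MT1L and -0.58 for TMEM106A, just outside it.

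Transcription factors of the early response to growth signals were among the 57 lower genes. EGR1, a zinc finger factor induced within minutes by growth factors (ENSG00000120738, chromosome 5, 138465490 to 138469315, GRCh38), had 218 and 272 CPM in DMSO and 49.7 and 99.2 CPM in AsiDNA. With belinostat it had 130 and 164 CPM, and in the combination 49.2 and 45.1 CPM. All 4 AsiDNA-treated libraries lay below all 4 others. The pooled log2 fold change was -1.68 ± 0.19 (SE, adjusted p = 0.0127), with -1.72 ± 0.24 without belinostat (adjusted p = 0.0399) and -1.64 ± 0.25 with it (adjusted p = 0.000486). The 2 effects differed by 0.09 ± 0.34 (adjusted p = 0.912). Over 19 alternative settings the pooled value stayed between -1.88 and -1.48.

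FOSB, a subunit of the AP-1 factor, had 78.1 and 133 CPM in DMSO, 26.4 and 58.2 in AsiDNA, 93.2 and 72.7 in belinostat, and 16.7 and 16.8 CPM in the combination. It fell by 1.79 ± 0.28 on the log2 scale in the pooled model (adjusted p = 0.0141). The orphan nuclear receptor gene NR4A1 had 13.4 and 29.9 CPM in DMSO, 5.19 and 9.6 in AsiDNA, 21.6 and 32.0 in belinostat, and 8.34 and 6.79 CPM in the combination. In both genes all 4 AsiDNA-treated libraries lay below all 4 others, and the lower DMSO value came from replicate 1. The effect without belinostat was -1.66 for FOSB and -2.02 for NR4A1 with DMSO replicate 1 left out, and -0.91 and -0.89 with DMSO replicate 2 left out. HES1, a repressor that Notch signalling induces, had 41.2 and 50.3 CPM in DMSO, 18.5 and 25.5 in AsiDNA, 35.5 and 55.9 in belinostat, and 17.2 and 15.7 CPM in the combination. Its 4 AsiDNA-treated libraries lay below all others, and it fell by 1.26 ± 0.17 (adjusted p = 0.0127). KDM6B, which removes methyl groups from histone H3, fell by 1.35 ± 0.20 (adjusted p = 0.0141).

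The early response did not move as 1 block. Of 29 tested early response and MAPK feedback genes 5 fell and 8 rose, with a median of 0.01, equal to that of all tested genes. DUSP6 and DUSP4, phosphatases that switch off MAP kinases, rose by 0.58 ± 0.11 and 0.54 ± 0.12 (adjusted p = 0.0165 and 0.0190). DUSP6 had 88.8 and 66.2 CPM in DMSO, 116 and 108 in AsiDNA, 69.0 and 63.2 in belinostat, and 103 and 102 CPM in the combination. EGR1 and FOSB thus fell while these feedback genes rose, in each background without overlap. For EGR1 and FOSB the choice of the 72 genes required this.

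CCN1 and CCN2 encode secreted matrix proteins that the YAP and TEAD factors induce. CCN2 (ENSG00000118523, chromosome 6, 131948176 to 131951373) had 34.0 and 32.6 CPM in DMSO and 13.4 and 15 in AsiDNA. Belinostat libraries held more of it, 168 and 200 CPM, and combination libraries 116 and 118 CPM. The pooled log2 fold change was -0.90 ± 0.13 (adjusted p = 0.0131), with -1.23 ± 0.15 without and -0.64 ± 0.13 with belinostat (adjusted p = 0.0170 and 0.00164). The difference of 0.59 ± 0.19 between the backgrounds did not pass (adjusted p = 0.121). CCN1 had 48.9 and 53.5 CPM in DMSO, 23.4 and 23.7 in AsiDNA, 77.2 and 104 in belinostat, and 62.2 and 54.2 CPM in the combination. It fell by 0.87 ± 0.14 (adjusted p = 0.0141). The DMSO replicates were close to each other in both genes, and the effects without belinostat were -1.27 for CCN2 and -1.05 for CCN1 without DMSO replicate 2. Of 21 tested YAP and TEAD genes 4 fell and 2 rose, among them the receptor kinase AXL at 0.63 ± 0.18 (adjusted p = 0.0259). The effect on AXL without belinostat was 0.50 with DMSO replicate 1 left out and -0.03 with DMSO replicate 2 left out.

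ITGA2, the collagen-binding integrin chain alpha 2 (ENSG00000164171, chromosome 5, 52989326 to 53094779), rose by nearly the same factor in both backgrounds. It had 101 and 79.2 CPM in DMSO, 167 and 168 in AsiDNA, 72.9 and 62.8 in belinostat, and 123 and 125 CPM in the combination. All 4 AsiDNA-treated libraries lay above all 4 others. The pooled log2 fold change was 0.88 ± 0.10 (adjusted p = 0.0127), with 0.89 ± 0.14 without belinostat (adjusted p = 0.0582) and 0.87 ± 0.14 with it (adjusted p = 0.000662). Over 19 alternative settings it stayed between 0.69 and 0.98.

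Promoter sequence is shown for EGR1, CCN2 and ITGA2, the genes of the 72 that also kept their call when the share of counts on sense-intronic genes was added to the model. Each stretch comes from the 250 bases before the RefSeq start on GRCh38.p14, 5′ to 3′ on the strand of the gene, without bases inside the gene as GENCODE places it. For EGR1, chr5:138465229-138465478 on the plus strand, capitals mark 2 CArG boxes, the sequence that serum response factor binds. For CCN2, chr6:131951374-131951622 on the minus strand, capitals mark 3 copies of GGAATG, the core that TEAD factors bind. For ITGA2, chr5:52989102-52989325 on the plus strand, capitals mark 3 GC boxes (GGGCGG), the core that SP1 binds.
EGR1: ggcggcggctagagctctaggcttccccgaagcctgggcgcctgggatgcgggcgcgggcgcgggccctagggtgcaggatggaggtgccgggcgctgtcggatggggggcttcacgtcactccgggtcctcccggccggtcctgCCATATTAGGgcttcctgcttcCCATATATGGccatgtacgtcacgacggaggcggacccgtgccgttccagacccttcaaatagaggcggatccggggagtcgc
CCN2: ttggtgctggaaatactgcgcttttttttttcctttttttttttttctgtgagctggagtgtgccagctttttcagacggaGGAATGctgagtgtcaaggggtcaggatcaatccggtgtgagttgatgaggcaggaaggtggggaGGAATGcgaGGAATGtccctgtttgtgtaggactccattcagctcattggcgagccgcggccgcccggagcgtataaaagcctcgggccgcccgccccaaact
ITGA2: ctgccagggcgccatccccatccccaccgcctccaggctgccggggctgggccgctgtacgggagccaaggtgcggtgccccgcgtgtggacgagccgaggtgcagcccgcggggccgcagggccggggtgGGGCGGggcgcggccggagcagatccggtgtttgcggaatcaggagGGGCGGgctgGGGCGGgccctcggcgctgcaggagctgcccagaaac
The CArG boxes begin 105 and 83 bases before the RefSeq start of EGR1, which differs from the gene start given above, and the TEAD cores of CCN2 begin between 169 and 95 bases before its RefSeq start. The motifs were searched on both strands in the 250 bases before each of 27305 RefSeq gene starts. A CArG box was found in 1.14% of these promoters, GGAATG in 11.9% and the GC box in 42.3%. Of the 57 lower genes 33 had a promoter in the table, of which 1 held a CArG box (EGR1), 5 held GGAATG and 15 a GC box. Of the 15 higher genes 7 had one, and 6 of these held a GC box. A match of letters is a description and does not show that a factor was bound.

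**Figure D3:**
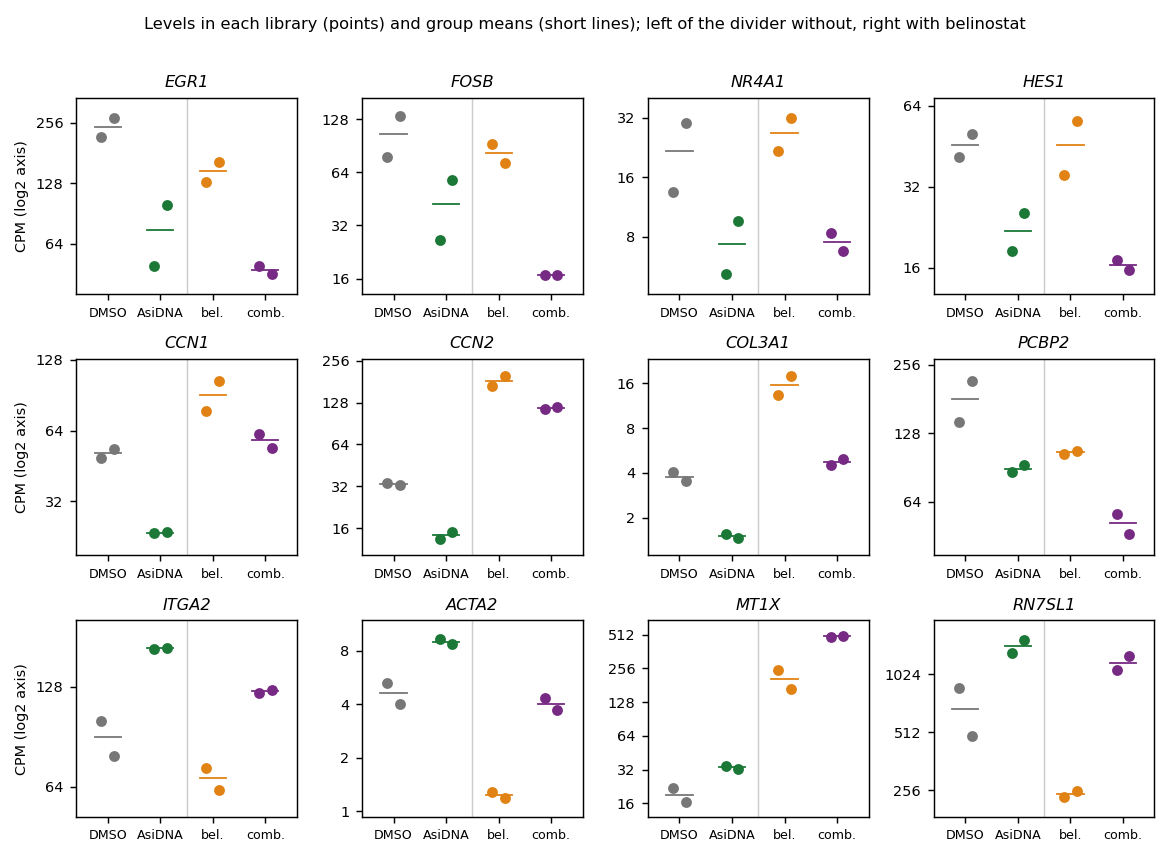
CPM (vertical axes, log2 scale) of 12 of the 72 genes in each library, with group means as short lines and a divider between libraries without and with belinostat. In every panel both AsiDNA-treated libraries lie on the same side of both others in each background, which the choice of the 72 genes required. EGR1, FOSB, NR4A1, HES1, PCBP2, ITGA2 and RN7SL1 also separate all 4 treated libraries from all 4 others.

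Matrix and cytoskeleton genes were found on both sides. The fibrillar collagen gene COL3A1 had 4.04 and 3.51 CPM in DMSO, 1.57 and 1.46 in AsiDNA, 13.4 and 17.8 in belinostat, and 4.51 and 4.99 CPM in the combination. It fell by 1.55 ± 0.20 (adjusted p = 0.0127), at a low level in cells without belinostat. ACTA2, the smooth muscle actin, had 5.25 and 4.0 CPM in DMSO, 9.3 and 8.73 in AsiDNA, 1.29 and 1.19 in belinostat, and 4.34 and 3.71 CPM in the combination. It rose by 1.21 ± 0.23 (adjusted p = 0.0167). Also lower were TNS1, which links integrins to actin (-0.79 ± 0.14), and the matrix genes TNXB (-0.74 ± 0.19) and LAMA5 (-0.73 ± 0.21). EFNB1, a ligand of Eph receptors, rose by 0.80 ± 0.16 (adjusted p = 0.0168).

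Genes for RNA binding, signalling and cell death were also among the 57 lower ones. PCBP2, which binds C-rich RNA, had 143 and 218 CPM in DMSO, 86.0 and 92.3 in AsiDNA, 104 and 107 in belinostat, and 56.6 and 46.2 CPM in the combination. All 4 AsiDNA-treated libraries lay below the others, and it fell by 1.03 ± 0.13 (adjusted p = 0.0127). The orphan receptor gene GPR135 fell by 1.85 ± 0.23 and BCL2L11, the pro-apoptotic BIM, by 0.77 ± 0.16 (adjusted p = 0.0127 and 0.0181). BCL2L11 had 6.57 and 6.04 CPM in DMSO, 3.74 and 3.64 in AsiDNA, 15 and 13.5 in belinostat, and 9.34 and 7.43 CPM in the combination. The transcription factor gene ZFHX3 fell by 0.73 ± 0.11 and the export pump gene ABCC2 by 1.09 ± 0.21 (adjusted p = 0.0141 and 0.0167).

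Among the 15 higher genes were transcripts of the signal recognition particle and of metal and pyruvate handling. RN7SL1, the RNA of that particle, had 867 and 490 CPM in DMSO, 1320 and 1540 in AsiDNA, 236 and 254 in belinostat, and 1080 and 1270 CPM in the combination. All 4 AsiDNA-treated libraries lay above all others, and it rose by 1.67 ± 0.25 (adjusted p = 0.0134). Its near-identical copies RN7SL2 and RN7SL3 rose by 1.5 ± 0.22 and 1.51 ± 0.22, and reads cannot be assigned safely among the 3. MT1X, a metallothionein that binds zinc, had 21.8 and 16.6 CPM in DMSO, 34.3 and 32.7 in AsiDNA, 246 and 169 in belinostat, and 488 and 502 CPM in the combination. It rose by 1.05 ± 0.15 (adjusted p = 0.0127), and it has close paralogs among which reads could be split. MPC1, a subunit of the mitochondrial pyruvate carrier, rose by 0.74 ± 0.13, and ALDH2, the mitochondrial aldehyde dehydrogenase, by 0.81 ± 0.20 (adjusted p = 0.0159 and 0.0212).

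The 12 largest rises and the 12 largest falls were taken by a rule that asked for a name, an average log2 CPM of at least 2 and no overlap in each background. The rises comprised the Cajal body RNA SCARNA10 (1.71 ± 0.39), the 3 RN7SL copies, the RNA component RMRP of RNase MRP (1.51 ± 0.37), the desaturase gene SCD5 (1.33 ± 0.31) and 6 replication-dependent histone genes. H4C4, the largest histone rise at 1.58 ± 0.35 (adjusted p = 0.0186), had 61.6 and 30.9 CPM in DMSO, 78.1 and 84.4 in AsiDNA, 6.22 and 5.59 in belinostat, and 33.0 and 46.1 CPM in the combination. SCARNA10 had 31.9 CPM in DMSO replicate 1 and 6.92 in replicate 2, so that its effect without belinostat was 0.52 without replicate 2 and 2.74 without replicate 1.

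The falls were led by TNFSF14, a cytokine of the TNF family, at -2.22 ± 0.35 (adjusted p = 0.0141). It had 3.54 and 8.67 CPM in DMSO, 1.45 and 3.06 in AsiDNA, 24.4 and 21.8 in belinostat, and 3.5 and 3.2 CPM in the combination. STX16-NPEPL1, a read-through transcript of 2 neighbouring genes, was at -2.09 ± 0.27, and SND1-IT1, a transcript inside an intron of SND1, at -1.97 ± 0.23 (adjusted p = 0.0127 for both). Both overlap other genes, and the strand setting of the counting is not given. Their reads therefore cannot be told apart from those of their hosts. Without belinostat STX16-NPEPL1 was low, with 1.52 and 3.9 CPM in DMSO and 1.21 and 0.437 CPM in AsiDNA. In AsiDNA replicate 2, 3 counts equal 0.447 CPM. It had 39.8 and 43.2 CPM in belinostat and 9.68 and 8.32 CPM in the combination. NEAT1, the RNA scaffold of paraspeckles, fell by 2.01 ± 0.37 (adjusted p = 0.0159) and had 3540 CPM in DMSO replicate 1 and 12900 in replicate 2. Its 2 AsiDNA libraries held 3010 and 2790 CPM, close to DMSO replicate 1. The effect without belinostat was -2.14 for NEAT1 and -1.96 for TNFSF14 with DMSO replicate 1 left out, and -0.29 and -0.69 with DMSO replicate 2 left out. The others by this rule were FOSB, GPR135, the axonemal dynein gene DNAH1 (-1.75 ± 0.35), IQCN (-2.05 ± 0.33), GARIN1A, C13orf46 and the noncoding AC005674.2 and AC017002.1.

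Gene lists chosen for the drugs, for glioblastoma and for general cell functions were compared with all tested genes, of which 29.2% were called and whose median was 0.01. Replication-dependent histone genes, which package newly made DNA, held the most genes that rose. Of 51 tested members 46 rose and 0 fell, with a median of 1.12. The median was 0.52 without and 2.02 with belinostat, and the former became 1.02 with DMSO replicate 1 left out and 0.16 with DMSO replicate 2 left out. H2BC5 rose by 1.02 ± 0.19 and H4C3 by 0.99 ± 0.21 (adjusted p = 0.0166 and 0.0181). Reads of such alike genes can be split among them, which leaves the value of any single histone gene uncertain. Together they took 0.444% and 0.265% of counts in DMSO, 0.482% and 0.505% in AsiDNA, 0.0479% and 0.0461% in belinostat, and 0.165% and 0.182% in the combination.

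Ribosomal protein genes rose, while other growth lists held fewer calls. Of 40 ribosomal protein genes 36 rose and 0 fell (median 0.50, and 0.21 without and 0.79 with belinostat). RPL12 had 236 and 182 CPM in DMSO, 254 and 256 in AsiDNA, 99.0 and 101 in belinostat, and 224 and 230 CPM in the combination. The list median without belinostat was 0.42 with DMSO replicate 1 left out and 0.06 with DMSO replicate 2 left out. Of 30 ribosome biogenesis genes 8 rose and 3 fell. In the DNA replication list 6 of 40 rose and 1 fell, and in the G2 and mitosis list 11 of 40 rose and 0 fell. Counted in either direction, both shares were below the 29.2% of all genes, of which 13.8% rose. The replication list had a median of 0.01 without and 0.53 with belinostat. FEN1, the flap nuclease, rose by 0.74 ± 0.18 and the helicase subunit MCM2 by 0.64 ± 0.16 (adjusted p = 0.0207 and 0.0222).

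Antioxidant, chaperone and lysosome genes rose in larger shares than all genes. Of 25 NRF2, glutathione and iron genes 15 rose and 0 fell, with a median of 0.49. Without belinostat the median was 0.48 with DMSO replicate 1 left out and 0.04 with DMSO replicate 2 left out. FTL, the light chain of the iron store ferritin, had 735 and 437 CPM in DMSO, 820 and 846 in AsiDNA, 347 and 333 in belinostat, and 943 and 963 CPM in the combination. Its effect without belinostat was 0.95 with DMSO replicate 1 left out and 0.18 with DMSO replicate 2 left out. FTL rose by 0.99 ± 0.21 in the pooled model, and GPX4, which reduces lipid peroxides, by 0.67 ± 0.15 (adjusted p = 0.0183 and 0.0190). Of 14 heat shock chaperone genes 9 rose, with HSPA1B at 0.80 ± 0.14 (adjusted p = 0.0159), a near-identical copy of HSPA1A. Of 34 autophagy and lysosome genes 18 rose and 1 fell, with the membrane protein LAMP1 at 0.77 ± 0.17 and the tetraspanin CD63 at 0.66 ± 0.14. Without belinostat the chaperone median was 0.48 and the lysosome median 0.32 when DMSO replicate 1 was left out. Both medians were 0.05 when DMSO replicate 2 was left out. Of 9 metallothionein and zinc genes 3 rose, MT1X, MT2A (0.89 ± 0.21) and MT1F (0.67 ± 0.18).

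Metabolic lists were mixed in their share of calls. Of 33 hypoxia and glycolysis genes 16 rose and 4 fell, with the carbonic anhydrase CA9 at 0.64 ± 0.14, the aldolases ALDOA at 0.69 ± 0.16 and ALDOC at 0.53 ± 0.11, and the demethylase KDM3A at -0.79 ± 0.15. Without belinostat the hypoxia and glycolysis median was 0.33 with DMSO replicate 1 left out and 0.02 with DMSO replicate 2 left out. Of 36 cholesterol genes 12 rose and 1 fell. Of 34 nuclear respiratory chain genes 12 rose, and of 13 mitochondrial genome genes 4 rose. The mitochondrial genome list had a median of -0.23 without and 0.58 with belinostat, and 6 of its 13 genes moved the same way in both backgrounds. Of 30 genes of the unfolded protein and amino acid response 9 rose and 2 fell, the latter being ATF3 (-0.55 ± 0.13) and ATF4 (-0.59 ± 0.14), the transcription factors of that response. Of 20 ABC transporter genes 7 fell and 1 rose (median -0.32). Their median without belinostat was -0.20, and it was -0.38 with DMSO replicate 1 left out and 0.07 with DMSO replicate 2 left out.

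DNA repair lists hold the machinery that AsiDNA is made to engage, and their medians lay between -0.04 and 0.19. Their shares of called genes lay on both sides of the 29.2% of all genes. In end joining 3 of 16 rose and 2 fell, with a median of -0.02. The Ku subunits XRCC5 and XRCC6, which hold broken ends, rose by 0.55 ± 0.14 and 0.57 ± 0.15 (adjusted p = 0.0234 and 0.0249). XRCC5 had 621 and 440 CPM in DMSO, 651 and 632 in AsiDNA, 236 and 236 in belinostat, and 396 and 439 CPM in the combination. XRCC6 had 332 CPM in DMSO replicate 1 and 328 and 339 CPM in AsiDNA, and so overlapped. The effects of AsiDNA against DMSO were 0.56 for XRCC5 and 0.58 for XRCC6 with DMSO replicate 1 left out, and 0.05 and 0.01 with DMSO replicate 2 left out. The DNA-PK kinase gene PRKDC was at 0.23 ± 0.12 (adjusted p = 0.154), the ligase LIG4 at -0.07 ± 0.10 (0.569) and PARP1 at 0.39 ± 0.14 (0.0593). Low in all libraries, the XLF gene NHEJ1 was at -1.21 ± 0.41 (adjusted p = 0.0451).

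In break signalling 3 of 24 rose and 3 fell, in homologous recombination 1 of 29 rose and 4 fell, and in PARP and base excision repair 3 of 21 rose. In the Fanconi list 4 of 17 rose and 2 fell, and in mismatch repair 4 of 14 rose. The clamp component RAD9A was at -0.94 ± 0.23, the Fanconi core gene FANCA at -0.90 ± 0.18 and the recombination helicase RAD54L at -0.69 ± 0.17 (adjusted p = 0.0205, 0.0170 and 0.0210). FANCA had 88.5 and 153 CPM in DMSO, 85.4 and 71.3 in AsiDNA, 82.2 and 83.3 in belinostat, and 37.2 and 34.8 CPM in the combination. Without belinostat the effect was -0.94 for FANCA and -0.62 for RAD9A with DMSO replicate 1 left out, and -0.17 and 0.03 with DMSO replicate 2 left out. BRCA1 was at 0.04 ± 0.10 and TP53BP1 at -0.21 ± 0.11 (adjusted p = 0.754 and 0.152). Of 29 p53 target genes 6 rose and 0 fell. The cell cycle inhibitor CDKN1A was at 0.49 ± 0.15 (adjusted p = 0.0347) with 127 and 98.7 CPM in DMSO, 122 and 127 in AsiDNA, 50.1 and 43.4 in belinostat, and 87.3 and 83.4 CPM in the combination. Its libraries overlapped without belinostat, where the effect was 0.35 with DMSO replicate 1 left out and -0.03 with DMSO replicate 2 left out. MDM2, the ubiquitin ligase of p53, was at 0.37 ± 0.12 (adjusted p = 0.0400). It also overlapped without belinostat, with 191 and 150 CPM in DMSO and 190 and 195 CPM in AsiDNA. The effect there was 0.38 with DMSO replicate 1 left out and 0.01 with DMSO replicate 2 left out.

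Of 17 deacetylase and sirtuin genes 5 fell and 0 rose, among them SIRT7 (-0.84 ± 0.16) and HDAC10 (-1.40 ± 0.30). Counted in either direction, this share was close to the 29.2% of all tested genes, of which 15.3% fell and 13.8% rose. Without belinostat HDAC10 was at -1.74 with DMSO replicate 1 left out and -0.37 with DMSO replicate 2 left out. HDAC1, HDAC2 and HDAC3 are among the class I enzymes that belinostat inhibits. They were at 0.12 ± 0.10, 0.22 ± 0.10 and 0.00 ± 0.10 (adjusted p = 0.350, 0.125 and 0.987). HDAC8 and HDAC6 fell, at -0.61 ± 0.16 and -0.56 ± 0.16 (adjusted p = 0.0227 and 0.0279). Their effects without belinostat were -0.77 and -0.31 with DMSO replicate 1 left out. With DMSO replicate 2 left out they were -0.01 and 0. Of 16 nucleic acid sensor genes 2 rose and 1 fell, and of 28 interferon-stimulated genes 2 rose and 1 fell. Both shares were below that of all tested genes. CGAS and STING1, the sensor of cytosolic DNA and its adaptor, gave 4 and 13 counts in all libraries together and were not tested. Of 17 genes for HLA class I and peptide loading 6 rose and 1 fell, and of 25 inflammatory genes 5 rose and 4 fell. Counted in either direction, these shares were above that of all tested genes.

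Surface and matrix lists were mixed, beside 13.8% higher and 15.3% lower among all tested genes. Of 38 collagen and matrix genes 8 fell and 4 rose, with COL1A1 at -0.65 ± 0.13 (adjusted p = 0.0170). COL1A1 had 238 and 261 CPM in DMSO, 182 and 203 in AsiDNA, 242 and 247 in belinostat, and 138 and 117 CPM in the combination, without overlap. Of 23 matrix protease and inhibitor genes 9 rose and 1 fell, including the inhibitors TIMP1 (1.18 ± 0.23), TIMP2 (0.78 ± 0.19) and TIMP3 (0.61 ± 0.13). Of 22 integrin and adhesion genes 7 rose and 1 fell, of 28 TGF-beta genes 4 rose and 5 fell, and of 27 WNT and Notch genes 3 rose and 3 fell. Of 28 growth factor and receptor kinase genes 6 rose and 2 fell. HGF, the ligand of the MET receptor, had 56.4 and 51.5 CPM in DMSO, 80.4 and 87.3 in AsiDNA, 17.6 and 22.0 in belinostat, and 37.0 and 39.8 CPM in the combination (0.79 ± 0.12, adjusted p = 0.0134). Of 26 mesenchymal and stem factors 3 rose and 4 fell, with HMGA1 at 1.17 ± 0.24 and the Runt factors RUNX1 and RUNX2 at -0.59 ± 0.10 and -0.66 ± 0.11. Of 29 apoptosis genes 3 rose and 1 fell. HAS2, the hyaluronan synthase, and the lysyl oxidase LOXL4 were at 0.60 ± 0.28 and 0.29 ± 0.18 (adjusted p = 0.112 and 0.227). The effect on HAS2 was 0.03 ± 0.16 without belinostat and 1.69 ± 0.25 with it (adjusted p = 0.954 and 0.000473). LOXL4 lay between 0.121 and 0.808 CPM without belinostat, near the level of 3 counts. With belinostat its effect was 0.38 ± 0.14 (adjusted p = 0.0453).

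**Figure D4:**
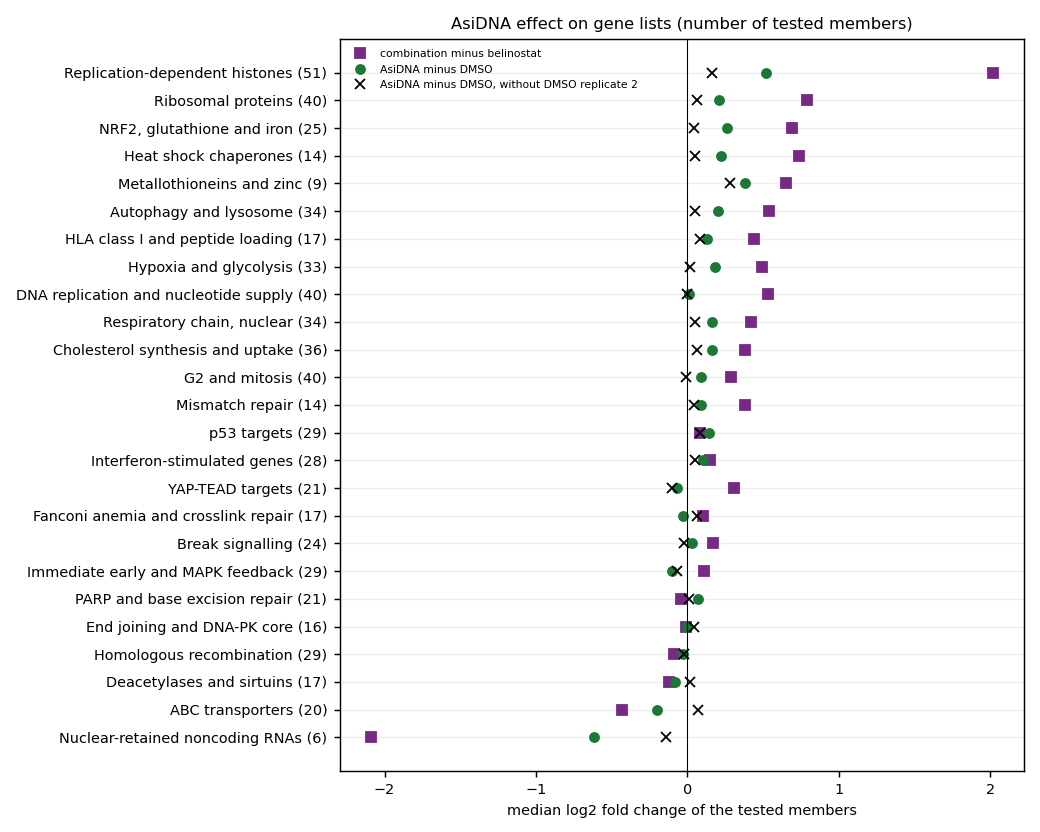
Median log2 fold change (horizontal axis) of the tested members of 25 gene lists (vertical axis, number tested in brackets) in the combination against belinostat, in AsiDNA against DMSO, and in the latter without DMSO replicate 2. Histone genes lie at 2.02, 0.52 and 0.16 and nuclear noncoding RNAs at -2.09, -0.62 and -0.14, while the end joining list lies at -0.01, 0.00 and 0.04.

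The counts of the lists rested on the same libraries as the pooled count. Of 45 lists 41 held a called gene with all libraries, 43 without DMSO replicate 1 and 4 without DMSO replicate 2. The pooled medians moved less, with 1.07 for histone genes, 0.49 for ribosomal proteins and 0.45 for the NRF2 list without DMSO replicate 2. Without DMSO replicate 1 these were 1.48, 0.65 and 0.57. In AsiDNA against DMSO the medians of the same lists were 0.16, 0.06 and 0.04 without DMSO replicate 2. In the combination against belinostat they were 2.02, 0.79 and 0.69 with all libraries.

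All 6 tested nuclear-retained noncoding RNAs fell, with a median of -1.57, among them MALAT1 (-1.61 ± 0.29, adjusted p = 0.0159) and KCNQ1OT1 (-1.54 ± 0.30, adjusted p = 0.0167). KCNQ1OT1 had 80.3 and 207 CPM in DMSO, 74.6 and 71.0 in AsiDNA, 818 and 873 in belinostat, and 245 and 158 CPM in the combination. The list median without belinostat was -0.62, and it was -1.04 with DMSO replicate 1 left out and -0.14 with DMSO replicate 2 left out. Protein-coding genes made up 97.4% of the same-direction genes that rose and 68.2% of those that fell, against 81.4% of all tested genes. The coding genes that rose spanned a median of 23.1 kb on the chromosome and those that fell 41.4 kb, against 33.7 kb in all.

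The share of counts on sense-intronic genes, transcripts inside introns of other genes, moved with the same labels. It was 0.057% and 0.113% in DMSO, 0.0556% and 0.051% in AsiDNA, 0.128% and 0.142% in belinostat, and 0.0561% and 0.044% in the combination. AsiDNA-treated libraries were lower in each background, by little against DMSO replicate 1. Within backgrounds an exact two-sided permutation test of this share had p = 0.0556 (adjusted p = 0.0778 over 7 shares), the smallest p that its 36 arrangements allow. The shares of histone genes, RN7SL RNAs, ribosomal proteins, and MALAT1 with NEAT1 had the same p, while small nucleolar and Cajal body RNAs had p = 0.167 and mitochondrial genes p = 0.222 in this exact test.

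With the sense-intronic share as a further term, 4 genes were called, against 4298 without it. EGR1 was at -1.54 ± 0.21 (adjusted p = 0.00106), CCN2 at -1.16 ± 0.18 (0.00475) and ITGA2 at 0.69 ± 0.13 (0.0455). RCAN1, a regulator of calcineurin that was named after its value was seen, was at -0.62 ± 0.12 (adjusted p = 0.0455), against -0.21 without the term. In that fit 3 of 45 lists held a called gene, the histone median was 0.10 and that of ribosomal proteins 0.05, and 17 list medians had the opposite sign. The share moved with the AsiDNA label in both backgrounds, so their parts in the result cannot be told apart.

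**Figure D5:**
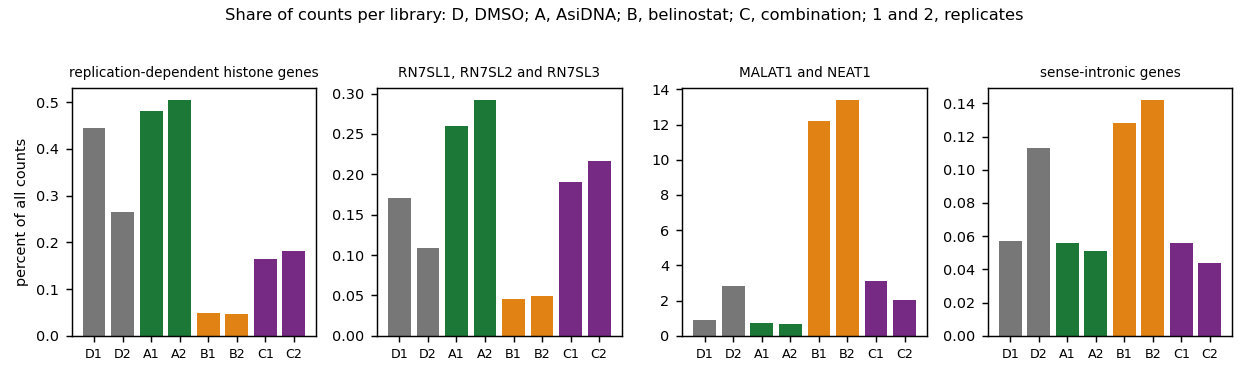
Percent of all counts (vertical axes, from 0) on 4 sets of transcripts in each of the 8 libraries. Histone genes and RN7SL RNAs are higher, and MALAT1 with NEAT1 and sense-intronic genes lower, in the AsiDNA-treated libraries of each background, and DMSO replicate 2 stands between DMSO replicate 1 and the belinostat libraries in all 4 panels.

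Markers of other cell types were low or mixed, here as CPM of a library's total. Neuronal markers summed to 68.1 to 106 CPM in DMSO, 67.0 to 70.0 in AsiDNA, 197 to 218 in belinostat and 173 to 181 CPM in the combination, with NEFL, NEFM and STMN2 at 0 counts, and 2 of 7 tested fell. Oligodendrocyte markers summed to 147 to 159, 160 to 168, 41.4 to 51.9 and 61.3 to 72 CPM in the same order, with MOG, OLIG1 and SOX10 at 0, and 1 of 4 rose. Astrocyte markers summed to 324 to 415 CPM over all libraries, and 0 of 4 were called. The microglial genes AIF1, C1QA, P2RY12 and TYROBP and the endothelial genes CDH5 and CLDN5 gave 0 counts, and 0 of 2 tested microglial, 0 of 2 endothelial and 0 of 1 epithelial markers were called. Mesenchymal markers summed to 7450 to 9420, 9270 to 9330, 4260 to 4360 and 7170 to 7200 CPM, and 2 of 8 rose and 2 fell. In bulk samples fewer cells of a kind and less RNA per cell cannot be told apart.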

How the data were processed

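Per the submitters' processing notes, the authors used cutadapt 1.16, STAR 2.7.0, the GRCh38 genome and featureCounts 1.6.3 of Subread, and deposited raw counts per gene for 8 libraries. Strand setting and annotation release: not given in the sources used here. Of 58884 identifiers 58611 matched GENCODE 29. Entries without a gene name held 0.456% of counts and were tested with the others. In all libraries 28036 genes had 0 counts.

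Genes were filtered by filterByExpr on the 4 groups, scaled by TMM and tested in edgeR 4.0.16 (R 4.3.3) by quasi-likelihood F-tests with Benjamini-Hochberg adjustment and a limit of 0.05. The pooled model had an intercept, a belinostat term and an AsiDNA term, with 5 residual degrees of freedom. A difference of the AsiDNA effect between the backgrounds therefore adds to the spread behind its p-values. The comparisons within each background and their difference came from a model with 1 coefficient per group and 4 residual degrees of freedom. The standard error was the log2 fold change divided by the root of F. The scripts were tested on simulated data. DESeq2 1.42.0, other scalings and filters, a replicate block, a sense-intronic term and leaving out each library were alternatives. Added after seeing the data were every alternative for the difference between backgrounds and DESeq2 without DMSO replicate 2. For the comparisons within each background, DESeq2, the other filters, the restricted gene sets and the sense-intronic term were also added then.

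The text names the 12 largest rises and falls among called genes with a name, an average log2 CPM of at least 2 and no overlap in either background. It also names up to 4 called members of each list with the smallest adjusted p, a fixed set of drug-related genes, and genes of the 72, a set drawn with the values in view. The members and all 45 lists were chosen with earlier results of these data known. Some genes that this rule names are not reported here. Promoters came from RefSeq.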

Additional observations from a re-analysis of the deposited data

Results flagged for a closer look

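AAAS, which encodes a nuclear pore protein (ENSG00000094914), was singled out because its AsiDNA effect differed between the backgrounds by a test of that difference. It had 33.2 and 38.2 CPM in DMSO, 38.6 and 35.1 in AsiDNA, 117 and 117 in belinostat, and 46.6 and 43.5 CPM in the combination. The effect was 0.05 ± 0.13 on the log2 scale without belinostat (edgeR adjusted p = 0.899) and -1.37 ± 0.13 with it (adjusted p = 0.0002). The difference was -1.42 ± 0.19 (adjusted p = 0.0439), and the pooled value was -0.68 ± 0.24 (adjusted p = 0.0489).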

How the results depend on the processing

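The number of genes called for AsiDNA in the pooled model was 4396 with RLE factors, 4127 with library size only, 5016 without a filter on low counts and 4625 with DESeq2. It was 0 at an adjusted p under 0.01, 1080 among genes with at least a 2-fold change, 0 in a test against a 1.5-fold change (1575 at an unadjusted p under 0.05), and 1632 with DESeq2 without DMSO replicate 2. Leaving out 1 library gave 0 to 8431 genes, and 0 to 8281 genes with the same direction, which were 1413 with DESeq2 without DMSO replicate 2. Averaging the AsiDNA effects of the 2 backgrounds in the model with 1 coefficient per group gave 5975 called genes. Without a filter the median over all genes shifted to -0.192. AsiDNA against DMSO gave 1 gene with library size only, 520 without a filter, 33 with DESeq2, 27 with DESeq2 without DMSO replicate 2, and 0 to 4955 without 1 library. The combination against belinostat gave 3142 to 8477 without 1 library. The difference between the backgrounds gave 10 genes with RLE factors, 157 with library size only, 1549 without a filter, 351 with at least 1 CPM in 2 libraries, 3 among protein-coding genes, 386 without the 10 most abundant genes, 614 with DESeq2, 3376 with DESeq2 without DMSO replicate 2, and 0 to 5358 without 1 library. The cause was not tested.

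Replicate numbers are no statement of pairing: deviations of same-numbered libraries correlated between -0.37 and 0.234. With a replicate block 3526 genes were called in the pooled model, 3515 with the same direction, 5 in AsiDNA against DMSO, 6351 in the combination against belinostat and 19 for the difference.

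With the sense-intronic share as a term the counts were 4 pooled, 4 with the same direction, 47, 85 and 238 for these comparisons. The share moved with the AsiDNA label, and its part was not tested. In that fit 27 examined genes had the opposite sign: XRCC6 -0.03, CDKN1A -0.03, MDM2 -0.01, RAD52 0.05, NEIL2 -0.06, PCNA -0.03, MSH6 -0.08, ZMAT3 -0.03, RRM2B -0.07, TK1 -0.01, BIRC5 -0.08, CCNA2 -0.02, HDAC8 0.01, HDAC6 0.05, STAT2 0.19, NOP2 0.01, ODC1 -0.02, MT-CO2 -0.02, MT-ND3 -0.14, MT-CO1 -0.03, COL7A1 0.01, BAD -0.02, ABCD4 0.08, ABCC5 0.2, GAD1 0.04, SNAP25 0.09 and AAAS 0.12. Another 194 kept their direction and lost their call, as did 217 without DMSO replicate 2 and 224 without each belinostat or combination library. With 2 libraries a group, a lone library left in a group is assumed to vary like the others, and 3 counts limit what could be detected.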
